A study of Mus musculus with 20 samples.

Results

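The mRNA decapping, uridylation and exonuclease genes are 10 genes that act on an mRNA once its poly(A) tail has been shortened, or that shorten the tail: Dcp1a, Dcp1b, Dcp2, Edc3, Edc4, Xrn1, Zcchc11, Dis3l2, Pan2 and Pan3. They were taken by symbol from the authors' 5 deposited tables, and all 10 were found among the 24411 gene symbols of each table. Poly(A) RNA was sequenced from untreated mouse eggs and embryos, in batches of 10 to 15 per sample. The C57BL/6J samples, of an inbred strain, were MII eggs (arrested in the second meiotic metaphase), G1 zygotes, G2 zygotes and 2-cell embryos in G2, with 3 samples at each stage. The authors' names for the C57BL/6J comparisons label these groups WT (wild type). The F1 hybrids carry the label B6CASTF1 and came as 3 samples of G1 zygotes, 3 of G2 zygotes and, as used here, 2 of 2-cell embryos in G2; the sources used here do not give the direction of the cross. In every group the oocytes were held in dbcAMP, released and matured in culture; embryos came from in vitro fertilization and culture in KSOM medium at 5% oxygen, so no group matured or developed in the animal. The series is titled for zygotic genome activation, when the embryo begins its own transcription, by the nuclear receptor Nr5a2.

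An egg carries a store of maternal mRNA that is cleared around fertilization and the 2-cell stage. Clearance usually begins with removal of the poly(A) tail, after which the cap is cut off by DCP2 and the body is digested from the 5′ end by XRN1, or uridines are added to the short tail by terminal uridylyltransferases and the body is digested from the 3′ end by DIS3L2 or the exosome. In mouse oocytes the Dcp1a and Dcp2 mRNAs are stored without being translated and are translated during meiotic maturation, and uridylation by ZCCHC11, also called TUT4, and its relative ZCCHC6 shapes the maternal transcriptome. These experiments measured the mRNAs of these proteins, not the proteins.

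The libraries were primed with oligo-dT, so a longer tail and more RNA cannot be told apart, and fewer cells of a type and less RNA per cell cannot be told apart either. The deposited tables compare consecutive stages and hold no values per sample. For each member the mean normalized count of each stage was therefore computed from the strain's mean and the fold changes in the authors' deposited tables; these implied counts carry no error of their own. The 2 strains were normalized separately, so levels are compared within a strain only. A change is called where the authors' adjusted p was under 0.05, and all 10 members have an adjusted p in all 5 comparisons. Consecutive comparisons share a stage, and an unusual value at that stage enters both with opposite sign. Nothing in the labels separates the samples of a group by female or by day; the p-values then measure only their spread, which may be technical.

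The ends of the 3′ UTRs are shown for the 3 members that hold a cytoplasmic polyadenylation element, the sequence through which CPEB proteins set the tail length of stored oocyte mRNAs. The element was searched as TTTTAT or TTTTAAT on the mRNA strand in the last 150 bases of the 3′ UTR of the longest coding transcript. Each site lies in the last exon of its gene on the plus strand of GRCm38, printed 5′ to 3′ with the element in capitals.
Dcp1a chr14:30527010-30527039: caaatatatttTTTTAATaaaatttcaaaa
Pan2 chr10:128321324-128321353: aaataaaagtatTTTTATctcattagaaaa
Pan3 chr5:147548460-147548489: atagcagtattTTTTAATaaagaattgcag
Dcp1a and Pan2 held 3 matches each in this window and Pan3 held 1. The capitalized elements of Dcp1a and Pan3 overlap an AATAAA polyadenylation signal. That of Pan2 does not overlap one, but the bases shown for Pan2 hold AATAAA before the element. The share of members with a match, 3 of 10, is near that of all genes, 25.8% (2671 of 10354 genes tested at the 2-cell step in both strains with a 3′ UTR of at least 150 bases). The 3′ UTRs of the members ranged from 350 bases in Dis3l2 and 363 in Edc4 to 4994 in Xrn1 and 7240 in Dcp2, against a median of 1234 over those genes.

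The promoters of Edc4 and Xrn1 are shown because the 2 genes parted at the 2-cell stage: Edc4 fell in both strains, and Xrn1 was higher in both, a rise called in B6CASTF1. RefSeq promoters of GRCm38.p6, from 250 bases before to 50 bases after the annotated start, were found for 9 of the 10 members (10 promoters, 2 of them of Zcchc11). AAGGTCA, a sequence that NR5A2 and related nuclear receptors bind, was searched on both strands and is in capitals.
Edc4 chr8:105880631-105880930, plus strand: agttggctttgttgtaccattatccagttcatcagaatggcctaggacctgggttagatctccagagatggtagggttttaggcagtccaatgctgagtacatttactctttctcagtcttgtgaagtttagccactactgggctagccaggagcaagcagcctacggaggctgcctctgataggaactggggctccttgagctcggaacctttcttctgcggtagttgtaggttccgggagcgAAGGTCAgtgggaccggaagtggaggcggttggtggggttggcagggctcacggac
Xrn1 chr9:95954510-95954809, plus strand: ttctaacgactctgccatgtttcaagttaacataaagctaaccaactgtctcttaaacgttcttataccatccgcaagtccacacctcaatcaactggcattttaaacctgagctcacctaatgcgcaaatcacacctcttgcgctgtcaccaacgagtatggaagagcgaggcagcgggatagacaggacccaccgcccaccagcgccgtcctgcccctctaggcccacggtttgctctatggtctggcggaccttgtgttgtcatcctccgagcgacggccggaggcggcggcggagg
The Edc4 promoter was the 1 of the 10 with a match, which starts 6 bases before the annotated start on the gene's own strand, and 4.72% of 32851 mouse promoters of the same length hold one. The promoters differ in base composition, with 8 CG pairs in Edc4, 20 in Xrn1 and a median of 7 over all promoters. A match is a stretch of letters and no binding was measured here.

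By the GENCODE M21 annotation of GRCm38, all 10 genes lie on the plus strand. Dcp1a lies at chr14:30479535-30527063, Dcp1b at chr6:119175253-119221616, Dcp2 at chr18:44380502-44424969, Edc3 at chr9:57708540-57752499 and Edc4 at chr8:105880881-105894908. Xrn1 lies at chr9:95954760-96057803, Zcchc11 (named Tut4 in this annotation) at chr4:108459426-108559421, Dis3l2 at chr1:86703808-87050095, Pan2 at chr10:128303335-128321358 and Pan3 at chr5:147430161-147548502. Exons of 3 members overlap exons of other genes, and the sources used here do not say whether counting used strand. Edc3 shares 1284 exonic bases with Clk3 on the opposite strand, Edc4 shares 458 with Nrn1l on the same strand, and Xrn1 shares exonic bases with 2 antisense genes, so these 3 counts could hold reads of a neighbour.

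Between the G2 zygote and the 2-cell embryo, the called members only fell in C57BL/6J and went both ways in B6CASTF1. No member had a called change in C57BL/6J before that step. In the authors' deposited table of C57BL/6J G1 zygotes against MII eggs 0 of 10 members were called, where 2.75% of 13551 genes were (1.62% risen, 1.12% fallen), and DESeq2's Wald test gave 0 of them an unadjusted p under 0.05, the smallest being 0.161. In the authors' deposited table of C57BL/6J G2 against G1 zygotes 0 of 10 were again called, against 7.88% of 13264 genes (5.01% risen, 2.87% fallen), with 0 at an unadjusted p under 0.05 and a smallest p of 0.158. In the C57BL/6J 2-cell embryo against the G2 zygote, 4 fell (Dcp1a, Edc4, Dis3l2 and Pan2) and 0 rose in the authors' deposited table, where 50.4% of 12839 genes were called, 25.3% as fallen and 25% as risen. In B6CASTF1 G2 against G1 zygotes 4 fell (Dcp1a, Edc4, Pan2 and Zcchc11) and 1 rose (Dcp2) in the authors' deposited table, against 19.3% of 14668 genes called, 9.63% in each direction. In the B6CASTF1 2-cell embryo against the G2 zygote all 10 members were called in the authors' deposited table, 7 fallen and 3 risen, against 59.9% of 16128 genes, 26.8% fallen and 33.1% risen. With the SE raised 1.5 times this count was 5 (Dcp1a, Dcp2, Edc4, Pan2 and Zcchc11), beside 7182 of all 16128 genes. With Bonferroni it was 4, beside 5405 of all genes. The 5 calls of the B6CASTF1 zygotes came to 2 under either. Of all 14668 genes, 999 were called there with the SE raised and 864 with Bonferroni.

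At the 2-cell step most genes of the transcriptome moved, so the number of members called carries little by itself; the direction differed more. By the authors' deposited tables, the members had a median log2 fold change of −1.52 in C57BL/6J and −1.26 in B6CASTF1, against 0.17 and 0.55 over all genes tested. The 4 members that fell in C57BL/6J also fell in B6CASTF1, which is 40% of the members and 18.4% of the 12573 genes tested in both. No member was called in opposite directions, and 0 rose in both, against 20.7% of genes. For 9 of 10 members the 2-cell fold change had the same sign in both strains, against 81.2% of all genes, with Pan3 the exception.

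**Figure D1:**
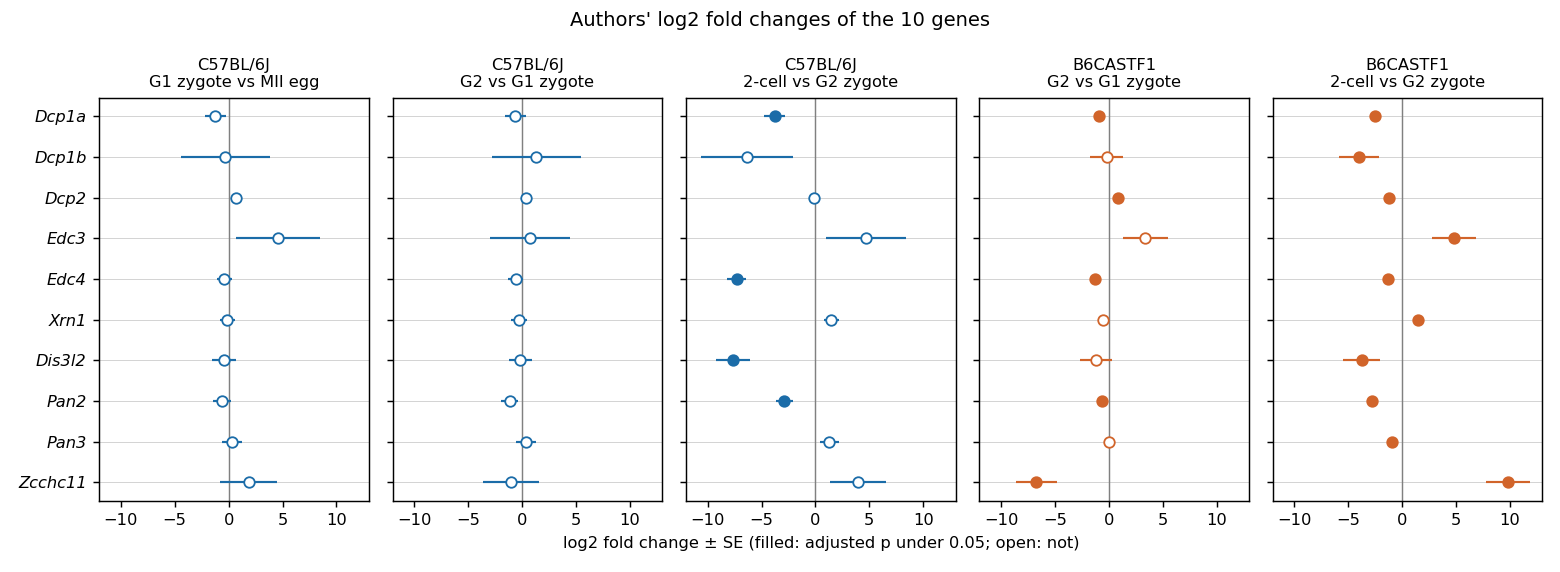
Log2 fold change of each of the 10 genes with its SE (x axis, log2 scale) in the authors' 5 deposited tables, 1 panel per comparison; filled points have an adjusted p under 0.05. C57BL/6J panels 1 and 2 hold only open points, 4 points are filled at the C57BL/6J 2-cell step, and all 10 are filled at the B6CASTF1 2-cell step, 7 below 0 and 3 above.

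Of the decapping enzyme, the mRNA of the activator fell steeply while that of the catalytic subunit stayed abundant. Dcp1a, whose protein switches DCP2 on, had implied counts of 5460 in C57BL/6J MII eggs, 2313 in G1 zygotes, 1509 in G2 zygotes and 111 in 2-cell embryos, lower at every later stage. In B6CASTF1 its implied counts were 6068 in G1 zygotes, 3303 in G2 zygotes and 577 in 2-cell embryos, again lower at every later stage. The 2-cell embryo thus held 7.33% of the G2 zygote's level in C57BL/6J and 17.5% in B6CASTF1. The authors' deposited tables gave Dcp1a a 2-cell value of −3.77 (SE 0.98, adjusted p 4.25e-04) in C57BL/6J and −2.52 (SE 0.18, adjusted p 3.51e-45) in B6CASTF1. By the authors' deposited tables the zygotic loss was called in B6CASTF1, at −0.88 (SE 0.15, adjusted p 2.81e-07), and not in C57BL/6J, at −0.62 (SE 0.97).

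Dcp2, the decapping hydrolase itself, first rose in B6CASTF1. Its implied counts were 839, 1336, 1775 and 1603 from MII egg to 2-cell embryo in C57BL/6J, where no step was called. In B6CASTF1 they were 1877 in G1 zygotes, 3412 in G2 zygotes and 1489 in 2-cell embryos, a peak in the G2 zygote. The authors' deposited table gave a B6CASTF1 rise of 0.86 (SE 0.23, adjusted p 0.00146) from G1 to G2, and the next gave a fall of −1.20 (SE 0.25, adjusted p 6.68e-06) to the 2-cell embryo. Summed from the G1 zygote to the 2-cell embryo, the log2 fold changes of Dcp2 came to 0.26 in C57BL/6J and −0.33 in B6CASTF1, so its level ended near where it began, beside sums of −4.39 and −3.39 for Dcp1a.

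Per kilobase of transcript, the ratio of the implied level of Dcp1a to that of Dcp2 went from 10.1 in the C57BL/6J egg through 2.67 and 1.31 in the zygotes to 0.107 in the 2-cell embryo. In B6CASTF1 this ratio of per-kilobase levels was 5.00 in G1 zygotes, 1.5 in G2 zygotes and 0.599 in 2-cell embryos. Per kilobase of the longest coding transcript, both strains thus went from more Dcp1a than Dcp2 in zygotes to less in 2-cell embryos. By implied count, not divided by length, Dcp1a was already below Dcp2 in G2 zygotes. It stood at 1509 against 1775 in C57BL/6J and at 3303 against 3412 in B6CASTF1. These levels carry no error, and which transcripts were present was not measured here. Dcp1b, the second DCP1 gene, stayed far below Dcp1a: its implied count was at most 19.6 at any C57BL/6J stage and 44.9 at any B6CASTF1 stage, and was 0.245 and 2.45 in the 2-cell embryos. Dcp1b was called once, in the authors' deposited table of B6CASTF1 2-cell embryos, at −4.0 (SE 1.84, adjusted p 0.0491), close to the threshold; its C57BL/6J value there was −6.32 (SE 4.25, adjusted p 0.208).

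**Figure D2:**
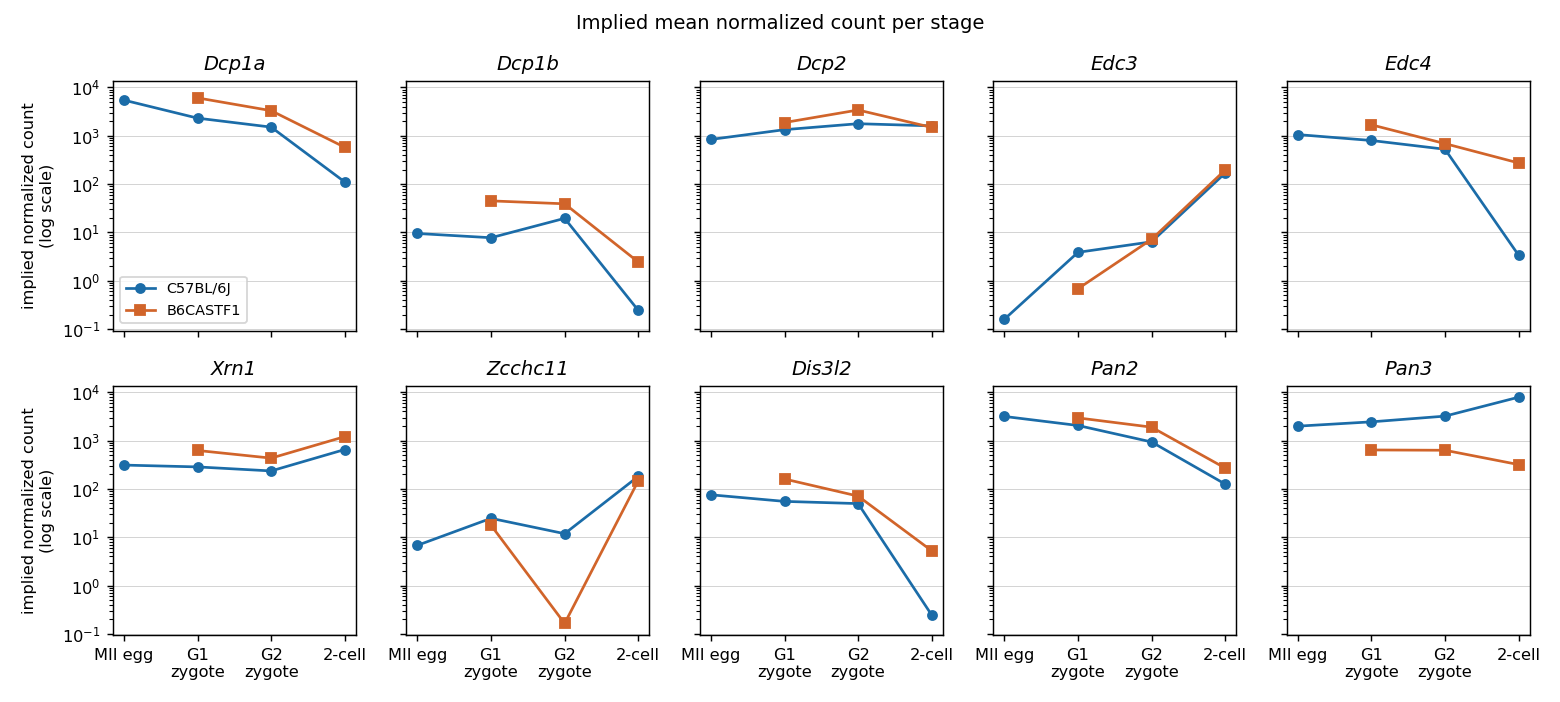
Implied mean normalized count of each of the 10 genes (y axis, log scale) at each stage (x axis), in C57BL/6J (blue circles, 4 stages) and B6CASTF1 (orange squares, 3 stages); no error can be given, and the strains were normalized separately, so only the shape is comparable between them. Dcp1a, Edc4, Pan2 and Dis3l2 are lowest in 2-cell embryos in both strains, Xrn1 and Edc3 are highest there in both, and Pan3 goes up in C57BL/6J and down in B6CASTF1.

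The 2 decapping enhancers behaved unlike each other. Edc4, a large scaffold that brings DCP1 and DCP2 together, had implied counts of 1057, 798, 525 and 3.37 from the C57BL/6J egg to the 2-cell embryo, nearly gone at the last stage. In B6CASTF1 the implied counts were 1684, 687 and 274, so 39.8% of the G2 zygote's level was left in the 2-cell embryo. The C57BL/6J 2-cell level was near 0, so the size of its fall, and of any difference from B6CASTF1, is a fitted number and no fold or remainder is given. In the authors' deposited tables the 2-cell fold change of Edc4 was −7.28 (SE 0.88, adjusted p 2.66e-15) in C57BL/6J and −1.33 (SE 0.31, adjusted p 4.65e-05) in B6CASTF1, both called. From G1 to G2 zygote, the authors' deposited tables gave a called B6CASTF1 fall of −1.29 (SE 0.27, adjusted p 3.51e-05), close in size to its 2-cell fall, and a C57BL/6J value of −0.60 (SE 0.71).

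The 2-cell fall of Edc4 differed between the strains. The strains share no sample, so a strain difference and a difference of library batch cannot be told apart. The B6CASTF1 minus C57BL/6J difference of the log2 fold changes in the authors' deposited tables was 5.96 (SE 0.93, 95% interval 4.13 to 7.78, Benjamini-Hochberg adjusted p 1.78e-08 over 12573 genes, normal test of the difference over its SE). Edc4 was the 1 member of 10 called for a strain difference at this step, where 16.6% of genes were called, and at the G2 against G1 step 0 of 10 were called against 1.92% of 12517 genes (0 with an unadjusted p under 0.05, the smallest being 0.0776 for Zcchc11). Nrn1l, the gene on the same strand whose exons overlap Edc4, had 2-cell values of 0.20 (SE 0.46, adjusted p 0.752) in C57BL/6J and −0.21 (SE 0.28, adjusted p 0.537) in B6CASTF1 in the authors' deposited tables. Its part in the Edc4 counts was not tested.

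Edc3, a second enhancer that binds DCP1-DCP2 and RNA, was near absent in eggs and highest in 2-cell embryos. Its implied counts were 0.160, 3.87, 6.40 and 169 from the C57BL/6J egg to the 2-cell embryo, and 0.683, 7.19 and 195 over the B6CASTF1 stages. Every implied level was higher than the one before it in both strains, but the fits were wide: the authors' deposited tables gave 2-cell values of 4.76 (SE 2.04, adjusted p 0.0341) in B6CASTF1 and 4.72 (SE 3.72, adjusted p 0.290) in C57BL/6J. The overlapping gene on the opposite strand, Clk3, rose at the same step in the authors' deposited tables, at 0.47 (SE 0.19, adjusted p 0.0260) in B6CASTF1 and 1.65 (SE 0.65, adjusted p 0.0255) in C57BL/6J, and its part in the Edc3 counts was not tested.

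Xrn1, the main cytoplasmic 5′ to 3′ exonuclease, which digests decapped mRNA, was among the members that were higher in the 2-cell embryo. Its implied counts were 311, 285, 235 and 653 over the C57BL/6J stages and 624, 433 and 1207 over the B6CASTF1 stages, highest in 2-cell embryos in both. The authors' deposited tables gave 2-cell values of 1.48 (SE 0.43, adjusted p 0.00138) in B6CASTF1, which was called, and 1.47 (SE 0.72, adjusted p 0.0762) in C57BL/6J, which was not. The strain difference of these values was 0.0062 with a 95% interval of −1.64 to 1.65 (adjusted p 0.998), which leaves room for a difference in either direction. Per kilobase, the implied level of Xrn1 was 0.0310 of that of Dcp1a in the C57BL/6J egg and 3.21 of it in the 2-cell embryo, and in B6CASTF1 this ratio went from 0.0559 in the G1 zygote to 1.14 in the 2-cell embryo.

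In the B6CASTF1 2-cell embryo the uridylyltransferase gene Zcchc11 rose and that of the exonuclease for uridylated RNA fell. Zcchc11, a terminal uridylyltransferase, had implied counts of 6.80, 24.6, 11.8 and 181 over the C57BL/6J stages. The implied counts of Zcchc11 were 17.7, 0.165 and 146 over the B6CASTF1 stages, so 2-cell embryos held the most in both. In the authors' deposited tables of B6CASTF1 it fell by 6.75 (SE 1.90, adjusted p 0.00345) from G1 to G2 and then rose by 9.80 (SE 2.02, adjusted p 4.07e-06). Both sizes rest on a G2 zygote value near 0 and are fitted numbers rather than folds; the 2 steps summed to 3.05, beside 2.88 over the same span in C57BL/6J. The C57BL/6J 2-cell value of Zcchc11 in the authors' deposited table was 3.94 (SE 2.60, adjusted p 0.20). Its relative Zcchc6 had the higher mean normalized count, 375 beside 56.1 in C57BL/6J and 782.7 beside 43.3 in B6CASTF1. The 2-cell value of Zcchc6 in the authors' deposited tables was −3.46 (SE 1.04, adjusted p 0.00261) in C57BL/6J, a called fall. In B6CASTF1 it was 0.14 (SE 0.41, adjusted p 0.786), which was not called.

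Dis3l2, the 3′ to 5′ exonuclease that prefers uridylated RNA, was lowest in the 2-cell embryo. Its implied counts were 75.5, 55.2, 49.7 and 0.246 over the C57BL/6J stages and 160.2, 70.9 and 5.25 over the B6CASTF1 stages. The 2-cell value in the authors' deposited tables was −7.66 (SE 1.61, adjusted p 1.05e-05) in C57BL/6J and −3.76 (SE 1.71, adjusted p 0.0472) in B6CASTF1, the latter close to the threshold and lost, as is that of Dcp1b, when the low-count filter is left out. Their difference was 3.90 with a 95% interval of −0.70 to 8.51 (adjusted p 0.281). Because the 2-cell level was near 0, these sizes are fitted numbers and no fold is given.

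PAN2 and PAN3 form 1 deadenylase, in which PAN2 is the nuclease and PAN3 holds it on the poly(A)-binding protein, and both mRNAs fell in the B6CASTF1 2-cell embryo; in C57BL/6J Pan2 fell, and no step of Pan3 was called. Pan2 had implied counts of 3157, 2052, 936 and 126 over the C57BL/6J stages and 2945, 1894 and 269.9 over the B6CASTF1 stages, lower at every later stage in both. The authors' deposited tables gave Pan2 2-cell values of −2.89 (SE 0.81, adjusted p 0.00111) in C57BL/6J, a call lost with the SE raised 1.5 times, and −2.81 (SE 0.26, adjusted p 6.62e-26) in B6CASTF1. The difference between the strains was 0.084 with a 95% interval of −1.58 to 1.75 (adjusted p 0.970). The 2-cell embryo held 13.5% of the G2 zygote's Pan2 level in C57BL/6J and 14.3% in B6CASTF1. By the authors' deposited table the zygotic step was called in B6CASTF1, at −0.64 (SE 0.23, adjusted p 0.0307); after centring on the median gene the value was −0.58 and the adjusted p 0.0557, which ends that call. In C57BL/6J it was −1.13 (SE 0.80).

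Pan3 had implied counts of 1986, 2440, 3203 and 7896 over the C57BL/6J stages, higher at each, and 639, 630.1 and 318 over the B6CASTF1 stages, level and then lower. The authors' deposited tables gave a called B6CASTF1 fall of −0.99 (SE 0.34, adjusted p 0.00798) and a C57BL/6J value of 1.30 (SE 0.91, adjusted p 0.228) that was not called. The strain difference was −2.29 (SE 0.97, 95% interval −4.19 to −0.38), with an unadjusted p of 0.0188 and an adjusted p of 0.0916, so it missed the threshold over all genes. The per-kilobase ratio of implied Pan2 to Pan3 fell by stage in both strains, from 1.98 in the C57BL/6J egg to 1.05, 0.364 and 0.0199, and from 5.74 in the B6CASTF1 G1 zygote to 3.75 and 1.06. By this ratio, at no B6CASTF1 stage was Pan2 below Pan3, while in C57BL/6J it was below from the G2 zygote on. By implied count, not divided by length, Pan2 was below Pan3 in B6CASTF1 2-cell embryos (269.9 against 318). In C57BL/6J that held from the G1 zygote on (2052 against 2440 there). These levels have no error to separate them.

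Read per kilobase, the mRNA with the highest implied level among the 10 differed by stage. These levels carry no error. In C57BL/6J no member was called before the 2-cell step and no step of Pan3 was called, so the order there is descriptive only. In C57BL/6J the highest implied level per kilobase was 979 for Dcp1a in the egg, 462 for Pan2 in the G1 zygote, 578 for Pan3 in the G2 zygote and 1425 for Pan3 in the 2-cell embryo. In B6CASTF1 it was 1088 and 592 for Dcp1a in the G1 and G2 zygotes, and 173 for Dcp2 in the 2-cell embryo. The first and second places lay close in the C57BL/6J G1 zygote, where Pan3 stood at 440.3 beside Pan2 at 462, and these levels have no error to separate them. The lowest places went to Edc3 in both strains until the 2-cell stage, apart from the B6CASTF1 G2 zygote, where Zcchc11 was lower, and to Dcp1b in both 2-cell embryos.

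The pathway genes whose pattern lay nearest to a member were found among 72 decay genes whose mean count reached 100 in both strains, by the Euclidean distance over the 5 log2 fold changes in the authors' deposited tables. For Dcp1a it was Pan2, at a distance of 1.25 on the log2 scale, and for Pan2 it was Cnot7, a CCR4-NOT deadenylase subunit, at 1.09. Xrn1 lay nearest to Exosc7, an exosome core subunit, at 0.750, Dcp2 to Upf3a at 1.33, Pan3 to Upf2 at 1.62 and Edc4 to Dcps, the scavenger decapping enzyme, at 1.85. The distance of Edc4 includes its C57BL/6J 2-cell value of −7.28, a fitted number from a level near 0, beside −8.33 (SE 1.70) for Dcps. Second to Edc4 was Cnot3, at 3.67. At the B6CASTF1 2-cell step Edc4 was called and Dcps, at −1.17 (SE 0.62), was not.

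The other 77 mRNA decay genes listed are set beside the members by role, with counts of those called in the authors' deposited tables. At the 2-cell step 22 of 74 tested rose and 15 fell in C57BL/6J, and 35 of 77 rose and 19 fell in B6CASTF1, with medians of 0.32 and 0.27. Of all genes tested, 25% rose and 25.3% fell there in C57BL/6J, and 33.1% and 26.8% in B6CASTF1. From egg to G1 zygote 2 rose and 2 fell, against 1.62% and 1.12% of all genes. From G1 to G2 zygote 6 rose and 2 fell in C57BL/6J, against 5.01% and 2.87%. In B6CASTF1 10 rose and 17 fell at that step, against 9.63% in each direction. The same shares over all genes apply to each list below.

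The exosome and its Ski and nuclear helpers, which digest RNA from the 3′ end, mostly rose. Of these genes in the authors' deposited tables, 12 of 18 rose and 1 fell in the C57BL/6J 2-cell embryo (median 2.20), and 12 rose and 2 fell in the B6CASTF1 one (median 2.12). Of these 18, 11 rose in both strains, or 61.1% against 20.7% of all genes, and 1, Hbs1l, fell in both. Skiv2l2, the helicase that feeds the nuclear exosome, had the smallest p of the list in the authors' deposited table of B6CASTF1, at 4.0 (SE 0.30, adjusted p 2.35e-39), and Exosc10, a nuclear exosome nuclease, followed at 2.87 (SE 0.22, adjusted p 1.41e-38). Wdr61, a Ski subunit, rose by 3.52 (SE 0.30, adjusted p 2.32e-29) in the C57BL/6J 2-cell embryo in the authors' deposited table. From G1 to G2 zygote the same list held 0 rises in either strain, with 1 fall in C57BL/6J and 4 in B6CASTF1. Among the B6CASTF1 falls was, by the authors' deposited table, Exosc3 at −0.98 (SE 0.20, adjusted p 2.33e-05). The C57BL/6J fall was Skiv2l, at −20.2 (SE 2.35), and Skiv2l was also among the 12 C57BL/6J 2-cell rises. Its implied count in C57BL/6J G2 zygotes was near 0, so both sizes are fitted numbers and no folds.

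Decapping co-factors, the LSM ring and its partners, went both ways: by the authors' deposited tables, 2 of 16 rose and 2 fell in C57BL/6J 2-cell embryos, and 6 of 18 rose and 7 fell in B6CASTF1. Within the LSM1-7 and LSM2-8 rings, Lsm2 and Lsm4 rose in both strains and Lsm3 fell in both. Lsm3 had first risen from G1 to G2 zygote, by 2.13 (SE 0.35, adjusted p 3.05e-07) in C57BL/6J and 1.21 (SE 0.17, adjusted p 2.81e-11) in B6CASTF1 in the authors' deposited tables, before falling by 2.01 (SE 0.35, adjusted p 1.11e-07) and 2.46 (SE 0.19, adjusted p 8.28e-37). Lsm2 rose at the 2-cell step by 1.76 (SE 0.31, adjusted p 1.46e-07) and 2.37 (SE 0.22, adjusted p 3.12e-26) in the authors' deposited tables. The other 5′ to 3′ and cap-surveillance nucleases listed were Xrn2, the nuclear exonuclease, which fell by 0.75 (SE 0.12, adjusted p 3.61e-08) from G1 to G2 zygote in B6CASTF1, and Dxo, which removes faulty caps and rose by 5.20 (SE 1.04, adjusted p 1.71e-06) in the B6CASTF1 2-cell embryo, both in the authors' deposited tables.

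Deadenylation genes split nearly evenly at the 2-cell step, with 5 of 21 risen and 8 fallen in C57BL/6J and 9 risen and 7 fallen in B6CASTF1 in the authors' deposited tables. Those that fell in both were Cnot4, Cnot6l, Cnot7, Btg4, Pabpc1l and Paip1, and those that rose in both were Cnot8, Cnot10, Tob2, Pabpc1 and Paip2. Cnot6l, a catalytic subunit of CCR4-NOT, fell by 3.22 (SE 0.33, adjusted p 3.57e-21) in C57BL/6J and 4.24 (SE 0.16, adjusted p 1.10e-154) in B6CASTF1 in the authors' deposited tables. The embryonic poly(A)-binding protein gene Pabpc1l and the somatic Pabpc1 thus moved in opposite directions, as did the alternative nuclease subunits Cnot7 and Cnot8. Cnot1, the scaffold of CCR4-NOT, had already risen from egg to G1 zygote in the authors' deposited table of C57BL/6J, by 2.43 (SE 0.33, adjusted p 1.23e-10), a step at which no member was called.

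Of the 8 other uridylation and tailing genes, 1 rose and 3 fell in the C57BL/6J 2-cell embryo and 2 rose and 3 fell in the B6CASTF1 one in the authors' deposited tables, and Papd5, which adds tails for nuclear decay, rose in both. Lin28b, which encodes a let-7-binding protein, fell by 3.33 (SE 0.79, adjusted p 9.85e-05) in C57BL/6J, and Mtpap, the mitochondrial poly(A) polymerase, fell by 4.46 (SE 0.26, adjusted p 6.03e-64) in B6CASTF1 in the authors' deposited tables. Nonsense-mediated decay genes held 2 rises and 1 fall among 9 tested in C57BL/6J and 5 rises and 0 falls among 10 in B6CASTF1 in the authors' deposited tables.

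**Figure D3:**
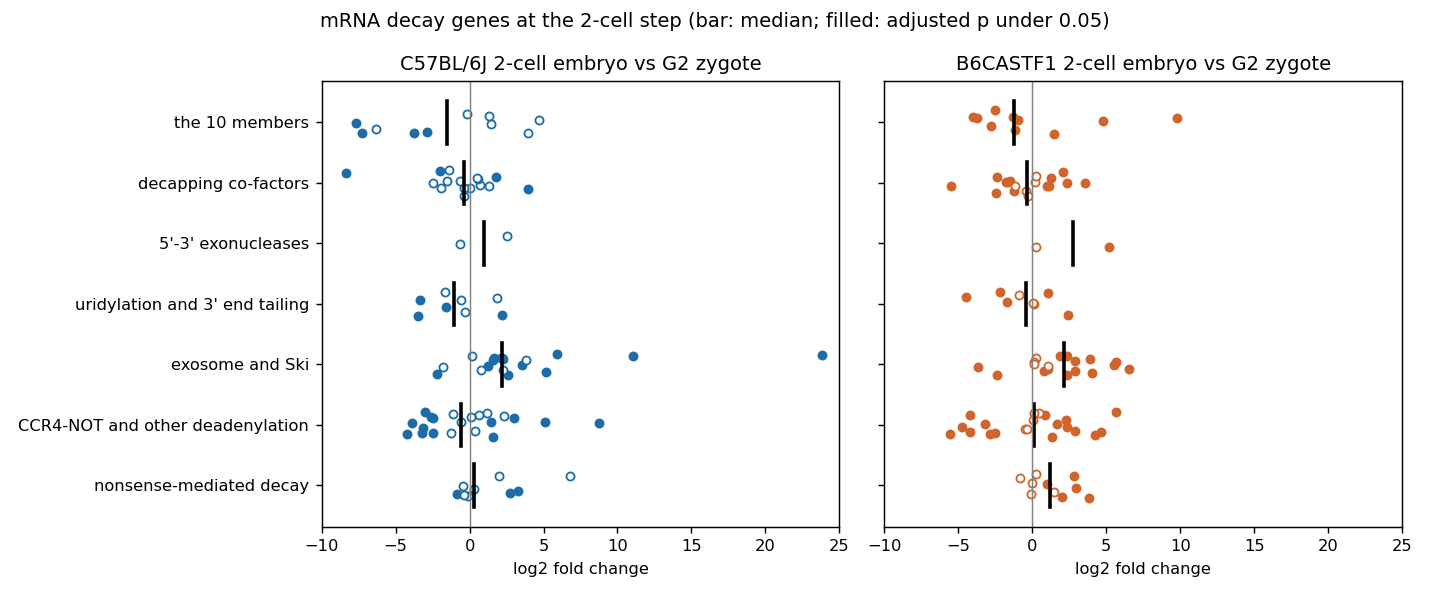
Log2 fold change (x axis) of every tested gene of each decay list at the 2-cell step in C57BL/6J and in B6CASTF1, from the authors' deposited tables; filled points have an adjusted p under 0.05 and the bar is the list's median. The members' medians of −1.52 and −1.26 lie left of 0, and those of the exosome and Ski list, 2.20 and 2.12, right of it; the C57BL/6J point at 23.84 is Skiv2l, whose implied count in G2 zygotes was near 0, so that it is no fold.

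The strains differed in how precisely the members were measured. Over the genes whose mean count reached 100, the median SE at the 2-cell step in the authors' deposited tables was 0.87 in C57BL/6J and 0.40 in B6CASTF1, and over the members it was 0.94 and 0.39. In C57BL/6J the SE of Dcp1a exceeded that of 91.1% of the 1807 genes within 2-fold of its mean, whose median SE was 0.48, and that of Pan3 exceeded 93.5% of 1329 genes. Dcp2, at 34.6%, and Edc4, at 53.2%, were measured about as well as genes of their level, and in B6CASTF1 the SE of Dcp1a exceeded only 17.7% of its neighbours. Dcp1b, Edc3, Zcchc11 and Dis3l2 had mean counts under 100 in both strains and SEs of at least 1.10 throughout, so that for these a missing call sets no narrow limit. A change called in B6CASTF1 and not in C57BL/6J is therefore not shown to differ between strains. Edc4 at the 2-cell step, called in both strains, is the 1 member value whose strain difference passed its own test.

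**Figure D4:**
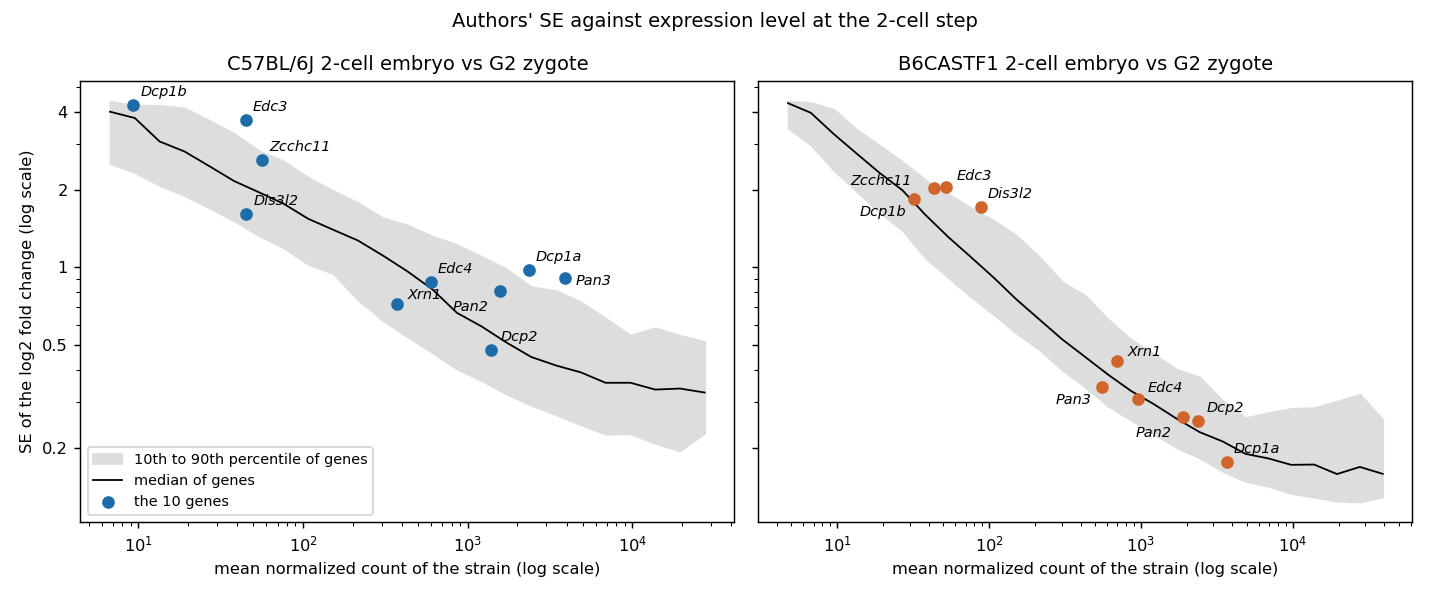
SE of each log2 fold change from the authors' deposited tables (y axis, log scale) against the strain's mean normalized count (x axis, log scale) at the 2-cell step; the line and band are the median and the 10th to 90th percentiles of all tested genes, in bins of mean count. Dcp1a, at 0.98, and Pan3, at 0.91, lie above the band in C57BL/6J, while in B6CASTF1 the 6 members with means over 100 lie inside it.

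All 11 oocyte markers had a mean normalized count above 0 in both strains, which does not show detection at each stage. Their summed implied count was 728133, 505085, 550691 and 309743 over the C57BL/6J stages. Over the B6CASTF1 stages it was 602772, 255097 and 185845. Dppa3 alone made up 284901 and 155995 of the 2-cell sums. The 7 markers of the 2-cell embryo summed to 229.9 to 952.6 before the 2-cell stage and 29832 at it in C57BL/6J, and to 379.7 to 1260.2 and then 47462 in B6CASTF1. Markers of cumulus and granulosa cells, the follicle cells around the egg, summed to 851 to 1620.4 in C57BL/6J eggs and zygotes and 16.0 in 2-cell embryos, and to 1429 to 2550 and then 573 in B6CASTF1. In eggs and zygotes Cyp19a1 made up most of that sum, while Amh was at 0 in both strains, Ptx3 and Inha in C57BL/6J, and Foxl2 and Lhcgr in B6CASTF1. Sperm and testis markers (7 of 9 with a strain mean above 0) summed to between 101 and 566 in C57BL/6J and between 117 and 965 in B6CASTF1. Blood and oviduct markers (6 of 7 with a strain mean above 0) summed to 64.5 to 6350 and 84.2 to 9459. Both sums were highest in 2-cell embryos. The top genes of these 2-cell sums were Ldhc, at 449 in C57BL/6J and 940.2 in B6CASTF1, for the sperm list, and Hba-a1, at 3827 in C57BL/6J, and Epcam, at 6336 in B6CASTF1, for the other. The follicle-cell list was lowest where Dcp1a, Edc4, Dis3l2 and Pan2 were lowest, and the part of any of these cells in the members' values was not tested.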

How the data were processed

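The 20 samples in 7 groups (at most 3 per group) gave Smart-seq2 libraries, per the labels' protocols. The submitters' processing notes name bcl2fastq, kallisto, TopHat, Picard, DESeq2 and the build mm10 as used by the authors, without their roles. The authors deposited 5 comparison tables made with DESeq2 1.18.1, as the names of these deposited tables record. The columns, per the file headers, are the mean count after normalization (a signal over all samples of the strain), the log2 fold change, its SE, a shrunken log2 version, the Wald score, and the p-value before and after adjustment. Values per sample were not used here, so depth is unknown and the authors' SE is the measure of precision.

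The members and gene lists were chosen with earlier results of these data known, so no list is independent evidence. Calls use the adjusted p under 0.05 of the authors' DESeq2 fit over all genes. Strains were compared per gene by subtracting the log2 fold changes and dividing by the root of the summed squared SEs, with a two-sided normal p and Benjamini-Hochberg adjustment over all genes tested in both strains. Implied stage counts solve the strain's mean and its consecutive fold changes, weighted by the samples used here (2 for B6CASTF1 2-cell embryos). Levels per kilobase use the longest coding transcript in GENCODE M21. Named genes were the 10 members and the 2 genes of each list with the smallest p in each comparison. The nearest pattern to each member with a mean of at least 100 was named too. Those called in both strains are listed as well. Overlapping genes, Skiv2l, Zcchc6 and the genes in the lists of markers were named after their values were seen. Some genes that this rule covers are not reported here. Scripts were tested on simulated data. Software was matplotlib 3.10.9, scipy 1.17.1, pandas 2.3.3 and numpy 2.4.6 under Python 3.11.15.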

Additional observations from a re-analysis of the deposited data

Results flagged for a closer look

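The 2-cell step of Edc4 differed between the strains by a test of the difference itself: the B6CASTF1 minus C57BL/6J log2 fold change was 5.96 (SE 0.93, adjusted p 1.78e-08), from a fall of −7.28 in C57BL/6J and −1.33 in B6CASTF1 in the authors' deposited tables. The C57BL/6J 2-cell level was near 0, so the size of its fall and of this difference is a fitted number. The implied count left in 2-cell embryos was 3.37 in C57BL/6J and 274 in B6CASTF1. Strain and library batch cannot be told apart here. The direction of the cross and the sample values behind both counts are not analysed here.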

How the results depend on the processing

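The alternatives run were an adjusted p under 0.01, Bonferroni, an absolute log2 fold change of at least 1, no filter or a mean count of at least 10 or 100, centring on the median gene, an SE raised 1.5 times and the shrunken fold change. Centring moved the 2-cell values by 0.23 in C57BL/6J and 0.21 in B6CASTF1. No called value changed direction; the value of Pan3 at the B6CASTF1 G2 against G1 step, which was not called, went from −0.02 to 0.04 with centring. The strain difference of Edc4 was called in the 8 alternatives run for it, which leave out the shrunken fold change. All 8 use the same fitted fold changes, or those shifted by centring. They therefore do not bear on the near-0 C57BL/6J 2-cell level. With Bonferroni the members called were 2 at the C57BL/6J 2-cell step (Edc4 and Dis3l2), 2 at the B6CASTF1 G2 against G1 step (Dcp1a and Edc4) and 4 at the B6CASTF1 2-cell step (Dcp1a, Dcp2, Pan2 and Zcchc11). With the SE raised 1.5 times the B6CASTF1 calls were 2 and 5, and 3 were left at the C57BL/6J 2-cell step (Dcp1a, Edc4 and Dis3l2, without Pan2). With an absolute log2 fold change of at least 1 there were 2 at the B6CASTF1 G2 against G1 step (Edc4 and Zcchc11), and with a mean of at least 100 there were 6 at the B6CASTF1 2-cell step, since that filter leaves the other 4 members untested. The other decay genes called with Bonferroni were 2, 3 and 15 over the C57BL/6J steps and 9 at the B6CASTF1 G2 against G1 step, against 4, 8, 37 and 27 as reported; with the SE raised 1.5 times they were 2, 3, 24 and 9, and with the fold minimum 13 at the last of these. Over all genes, Bonferroni called 137 of 13551, 254 of 13264 and 2594 of 12839 over the C57BL/6J steps. In B6CASTF1 it called 864 of 14668 from G1 to G2 and 5405 of 16128 at the 2-cell step. With the SE raised 1.5 times these were 75, 170 and 3778, and 999 and 7182. The fold minimum called 1785 genes at the B6CASTF1 G2 against G1 step. The mean of at least 100 called 7589 at the B6CASTF1 2-cell step. Counting B6CASTF1 2-cell embryos as 3 samples changes an implied count by at most 30.8%. Leaving out each replicate was not run, for want of per-sample values. No paired analysis was possible because the tables' columns carry no replicate numbers.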
